A study of Mus musculus with 6 samples.

Results

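The early growth response genes Egr1, Egr2 and Egr3, the orphan nuclear receptor genes Nr4a1, Nr4a2 and Nr4a3, and the Egr corepressor genes Nab1 and Nab2 were examined for H3K4me3 at their promoters in a T cell and a B cell progenitor line. These 8 genes, out of 21951 protein-coding genes in the annotation, were chosen by name, with earlier results of these data known. H3K4me3 is a histone mark that covers the promoters of transcribed genes and of many genes held ready for transcription. Scid.adh.2C2 is a T cell progenitor line derived from a pro-T tumor of CB17-Prkdc scid mice, whose Prkdc mutation impairs antigen receptor rearrangement, and the line compared with it is a B cell progenitor line transformed with the Abelson virus, called the Abelson line here. Each line was untreated as far as the labels state, and each gave 2 H3K4me3 ChIP libraries, made with the same antibody, and 1 input library. Both are tumor-derived or transformed lines, 1 per lineage, so that differences between T and B cell progenitors and differences between these particular lines cannot be told apart. The authors combined the libraries of a line into 1 peak list, so that neither the spread between the libraries nor their depth can be given, and no test between the lines was possible. A gene was marked when a peak overlapped the region 2500 bp either side of any of its annotated transcription start sites (TSSs).

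Egr1, Egr2 and Egr3 encode zinc finger transcription factors that bind GC-rich sites, and their genes are switched on within minutes of growth factor or antigen receptor signaling through serum response factor and its Elk partners. Nr4a1, Nr4a2 and Nr4a3 encode nuclear receptors without a known ligand, which are induced in the same rapid manner through Mef2, NFAT and CREB proteins and are widely used as reporters of antigen receptor signaling. Nab1 and Nab2 bind to Egr proteins and repress their activity, and Nab2 is itself an Egr target. In thymocytes these factors take part in β-selection, in positive and negative selection and in the response to self antigen.

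The promoter sequences are given before the peaks, for the stretches that hold a match to a site of these factors. Of the 8 genes, 6 had an entry in the RefSeq promoter table of GRCm38.p6, which holds 300 bases per start site, 250 before and 50 after it. Egr1 and Egr3 had none. The following motifs were searched on both strands: the CArG box bound by serum response factor, the full cyclic AMP response element (TGACGTCA), its TGACG core, the Egr site (GCGTGGGCG or GCGGGGGCG) and the NGFI-B response element bound by Nr4a monomers (AAAGGTCA). The core lies inside the full element. Capitals mark the matches, and the strand is that of the gene. The printed stretches of Egr2 and Nr4a1 overlap no annotated exon, while the windows of Nr4a2, Nr4a3 and Nab1 do. The sequences are Egr2 at chr10:67537316-67537565 (plus strand), with a CArG box, Nr4a1 at chr15:101266596-101266845 (plus strand), with 4 cores and 1 Egr site, short windows of 30 bases around paired cores of Nr4a2 at chr2:57124104-57124133 (minus strand) and of Nr4a3 at chr4:48045084-48045113 (plus strand), and 2 such windows around Egr sites of Nab1, of the 3 it held, at chr1:52500538-52500567 and chr1:52500471-52500500 (minus strand).
Egr2: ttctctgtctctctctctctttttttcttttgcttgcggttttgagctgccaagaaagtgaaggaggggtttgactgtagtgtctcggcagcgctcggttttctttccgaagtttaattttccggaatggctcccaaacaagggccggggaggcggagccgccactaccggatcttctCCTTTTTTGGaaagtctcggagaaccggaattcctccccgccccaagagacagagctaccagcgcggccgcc
Nr4a1: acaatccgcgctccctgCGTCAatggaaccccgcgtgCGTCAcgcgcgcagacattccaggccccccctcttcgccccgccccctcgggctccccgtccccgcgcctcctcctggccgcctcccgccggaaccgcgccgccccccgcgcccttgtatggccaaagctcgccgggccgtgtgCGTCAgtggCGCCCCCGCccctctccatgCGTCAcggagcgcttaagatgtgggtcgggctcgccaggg
Nr4a2: gccgggcTGACGgggccgcTGACGcgcttg
Nr4a3: tcccatgtCGTCAcatTGACGtctcgcatt
Nab1, site at -109: actcggccgcGCGTGGGCGggagccggagc
Nab1, site at -38: gcgcgcggggcgggGCGGGGGCGgcggagg

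The 3 Nr4a promoters each held 4 TGACG cores. The core was not limited to them. The Egr2 entries with start sites at chr10:67537869, chr10:67537870 and chr10:67537930 each held the same 2 cores, and the Nab1 entry held 1. Of the 32851 RefSeq promoters, 20.8% held at least 1, 5.01% held 2 or more and 0.231% held 4 or more. The core was added to the search after these sequences had been seen, so that these shares are a description only. In Nr4a1 the cores began at positions -233, -213, -69 and -40 from the start site. The full cyclic AMP response element, found in 1.79% of all promoters, was in none of the 10 member entries. A CArG box, found in 1.63% of all promoters, was present in 4 of the 5 Egr2 entries and in no other entry of these genes. The Egr2 entries held 2 different boxes, one reading CCTTTTTTGG and the other CCATATATGG. At least 1 Egr site was found in 3.47% of all promoters, and 3 or more in 0.0365%. The Nab1 promoter held 3, at -141, -109 and -38, and Nr4a1 held 1. The Egr site is rich in GC and the Nab1 entry had 81.7% GC. No share among promoters of like GC was computed, and the limit of 3 is the number in Nab1 itself, so that these shares are a description only. The Nab2 entry had no match to any of the motifs, and the NGFI-B response element, found in 1.51% of all promoters, was in none of the 10 entries. These matches are a description of the letters and not of binding. The promoters were rich in GC, from 56% to 81.7% over the 10 entries against a median of 52.7% for all promoters, and their ratio of observed to expected CpG ran from 0.64 to 1.04 against a median of 0.38.

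All 8 genes were marked in the Abelson line and 4 were marked in Scid.adh.2C2. Over all protein-coding genes, 48.2% were marked in the Abelson line and 45.5% in Scid.adh.2C2. Egr1, Egr2, Nr4a2 and Nr4a3 were marked in both lines, as were 42.2% of all genes. Egr3, Nr4a1, Nab1 and Nab2 were marked in the Abelson line only, a state found in 5.96% of all genes and in 12.4% of the genes marked in the Abelson line. None had a peak in Scid.adh.2C2 alone, against 3.28% of all genes, and none was unmarked in both lines, against 48.6%. An unmarked promoter is one where no peak passed the authors' thresholds. The level of the mark there was not analysed, so a missing peak need not mean a missing mark. The T cell labels fitted the markers, since 9 of 9 T cell progenitor genes were marked in Scid.adh.2C2 and 3 of 9 in the Abelson line. Of 8 B cell progenitor genes, 8 were marked in the Abelson line and 1, the surrogate light chain gene Vpreb1, in Scid.adh.2C2. None of 6 myeloid and none of 4 NK cell genes was marked in either line, and of 4 erythroid genes 2 were marked in Scid.adh.2C2 and 1 in the Abelson line.

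**Figure D1:**
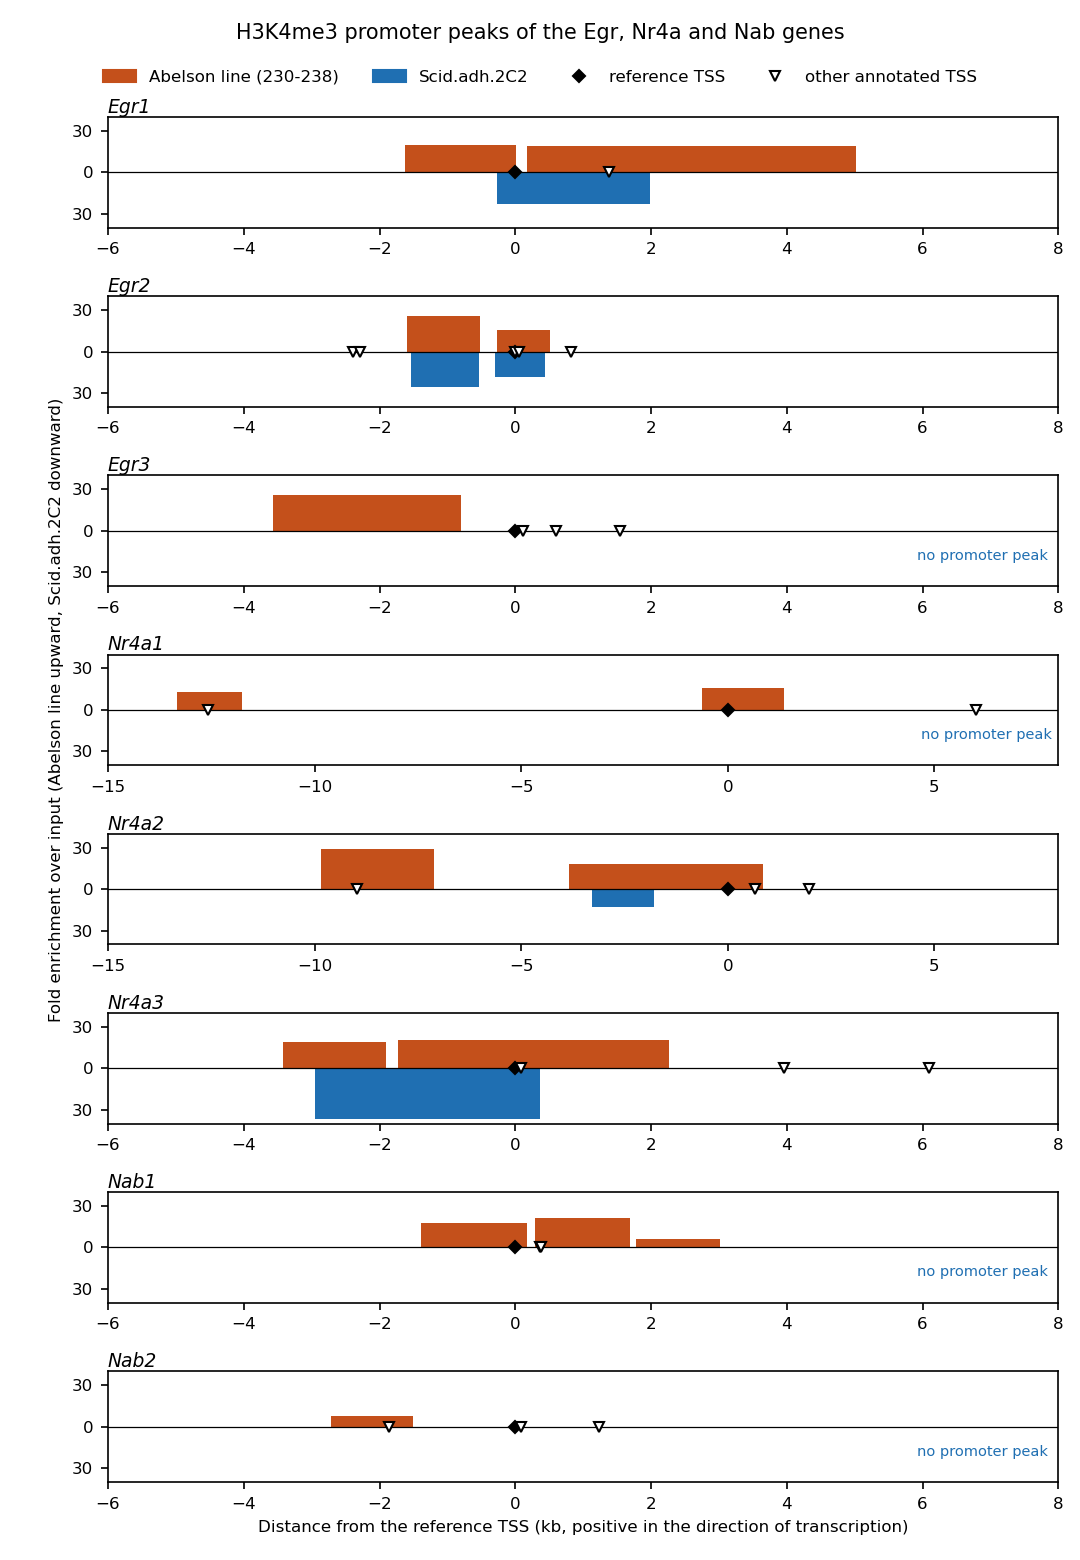
Promoter peaks of the 8 genes, drawn by distance from the reference TSS (kb) with the authors' fold enrichment over input as height, upward for the Abelson line and downward for Scid.adh.2C2. Diamonds are reference TSSs and triangles other annotated TSSs, of which 2 of Nab1 lie beyond the right edge. Egr3, Nr4a1, Nab1 and Nab2 have no bar in Scid.adh.2C2, Egr2 has a matching pair of bars in both lines, and the Nr4a2 bar of Scid.adh.2C2 lies away from every TSS.

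The reference TSS of a gene was the start of its first-numbered transcript in the annotation. Egr1 (ENSMUSG00000038418, chr18:34859823-34864984, plus strand) was marked in both lines over very different lengths. In Scid.adh.2C2 a single peak at chr18:34859546-34861800 reached from 277 bp before to 1977 bp after the reference TSS, with a fold enrichment of 23.1. The Abelson line had a split mark, in which a peak of 1640 bp with 19.5-fold enrichment ended 8 bp past the TSS, and after a gap of 164 bp a second peak of 4849 bp with 18.7-fold enrichment ran on to 5021 bp. Both lines thus had the mark over the start of Egr1, and in the Abelson line it continued over nearly the whole gene. Peaks covered 94.1% of the 5162 bp of Egr1 in the Abelson line and 38.3% in Scid.adh.2C2.

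Egr2 (ENSMUSG00000037868, chr10:67535475-67542188, plus strand), which encodes a factor that restrains T cell activation, had nearly the same pair of peaks in both lines. The upstream peak had 25.6-fold enrichment in Scid.adh.2C2 (chr10:67536333-67537332) and 26.0-fold in the Abelson line (chr10:67536274-67537349), with summits 40 bp apart. The second peak, over the reference TSS, had 18.7-fold enrichment in Scid.adh.2C2 (chr10:67537574-67538306) and 15.9-fold in the Abelson line (chr10:67537593-67538378), with summits 35 bp apart. No edge of these peaks differed by more than 72 bp between the lines. The gap between them was 241 bp in Scid.adh.2C2 and 243 bp in the Abelson line. The RefSeq start site that ends the Egr2 sequence printed above fell in this gap in both lines, and so did its CArG box, at chr10:67537494-67537503. The other CArG box, at position -72 from the reference TSS, lay under the second peak in both lines. Of the 6 annotated TSSs, the first 2 and the last had no peak over them in either line.

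Egr3 (ENSMUSG00000033730, chr14:70077203-70082614, plus strand), whose product acts together with Egr2, had no promoter peak in Scid.adh.2C2. A peak of 2774 bp with 25.8-fold enrichment was present in the Abelson line at chr14:70073630-70076403. It ranked 2118 of 19604 by fold in its list, but it ended 800 bp before the first TSS and covered none of the 4 TSSs. No base of the Egr3 gene itself lay under a peak in either line. The state of Egr3 in the Abelson line therefore rests on an upstream peak that falls in the promoter window. The closest peak in Scid.adh.2C2 lay 10.0 kb from the gene's TSSs and had 8.71-fold enrichment.

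Nr4a1 (ENSMUSG00000023034, chr15:101254269-101274795, plus strand), which encodes Nur77, was unmarked in Scid.adh.2C2, where the closest peak lay 10.5 kb from any of its TSSs. The Abelson line had a peak at 2 of its 3 annotated start sites. The upstream start, at -12577 bp from the reference TSS, had a peak of 1568 bp with 13.2-fold enrichment at chr15:101253525-101255092. The reference TSS lay under a peak of 1973 bp with 16.04-fold enrichment at chr15:101266229-101268201, which also held all 4 TGACG cores and the Egr site of the Nr4a1 sequence. The higher of these values stood at the 18.7th percentile of the marked promoters of the Abelson line, so that Nr4a1 was among the lower promoters by height.

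Nr4a2 (ENSMUSG00000026826, chr2:57106830-57124003, minus strand), which encodes Nurr1, differed most between the lines among the genes marked in both. In Scid.adh.2C2 it had a single peak of 1499 bp with 13.2-fold enrichment at chr2:57116825-57118323. This peak covered no annotated TSS and ended 1787 bp from the closest one. In the Abelson line a peak of 4699 bp with 17.9-fold enrichment (chr2:57114180-57118878) held the whole of it and extended over the reference TSS. Their summits were 128 bp apart, so that the highest points of both peaks lay close together inside the gene, at -2875 bp and -3003 bp from the reference TSS. A second peak in the Abelson line, of 2727 bp with 28.9-fold enrichment at chr2:57122146-57124872, covered the most upstream TSS and ranked 814 of 19604 by fold. There was no peak at that upstream TSS in Scid.adh.2C2, and the 4 TGACG cores before it were under a peak in the Abelson line only.

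Nr4a3 (ENSMUSG00000028341, chr4:48045153-48086447, plus strand) encodes Nor1. Of the 4 genes marked in both lines, only its highest peak was, relative to all shared promoters, higher in Scid.adh.2C2, by less than 2-fold. There a peak of 3302 bp at chr4:48042209-48045510 had 36.3-fold enrichment and ranked 858 of 15513 by fold. A pair of peaks in the Abelson line, with a gap of 164 bp between them, had 18.8-fold enrichment over 1524 bp and 20.3-fold over 4003 bp. The peak of Scid.adh.2C2 lay mostly before the gene, with 89.2% of its length upstream of the reference TSS, and it ended 357 bp after it. The mark of the Abelson line ended 2267 bp after the TSS and 59.0% of it was upstream. The 4 TGACG cores lay under a peak in both lines.

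Nab1 (ENSMUSG00000002881, chr1:52457294-52500679, minus strand) had 3 peaks at its start in the Abelson line and none in Scid.adh.2C2. They had 17.9-fold enrichment over 1568 bp, 21.2-fold over 1392 bp and 6.18-fold over 1228 bp, in the direction of transcription, with gaps of 121 bp and 95 bp. The first of them also fell in the promoter window of the pseudogene Gm5976. The reference TSS lay in the first peak, as did the printed Egr site at -109, while the site at -38 lay in the gap of 121 bp. Both positions are counted from the RefSeq start site at chr1:52500448, and both sites lie past the reference TSS in the direction of transcription. No peak of Scid.adh.2C2 was closer to a Nab1 TSS than 129.7 kb, and that one belonged to the promoter of its neighbour Nemp2.

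Nab2 (ENSMUSG00000025402, chr10:127660918-127668568, minus strand) had the weakest mark of the 8 genes. A single peak of 1212 bp in the Abelson line (chr10:127668212-127669423), with 7.53-fold enrichment, covered the most upstream of its 4 TSSs. It stood at the 1.00th percentile of the marked promoters by height, and it fell in the promoter window of the divergent gene Nemp1 as well. The reference TSS of Nab2, 191 bp from the closest Nemp1 TSS, had no peak within 1502 bp in the Abelson line and none within 9484 bp in Scid.adh.2C2. A higher peak, with 14.9-fold enrichment, was found inside the 3′ part of Nab2 in the Abelson line, 4857 bp past the reference TSS. Nemp1 itself was marked in both lines, with 25.4-fold enrichment in Scid.adh.2C2 and 21.3-fold in the Abelson line, at other starts of that gene.

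**Figure D2:**
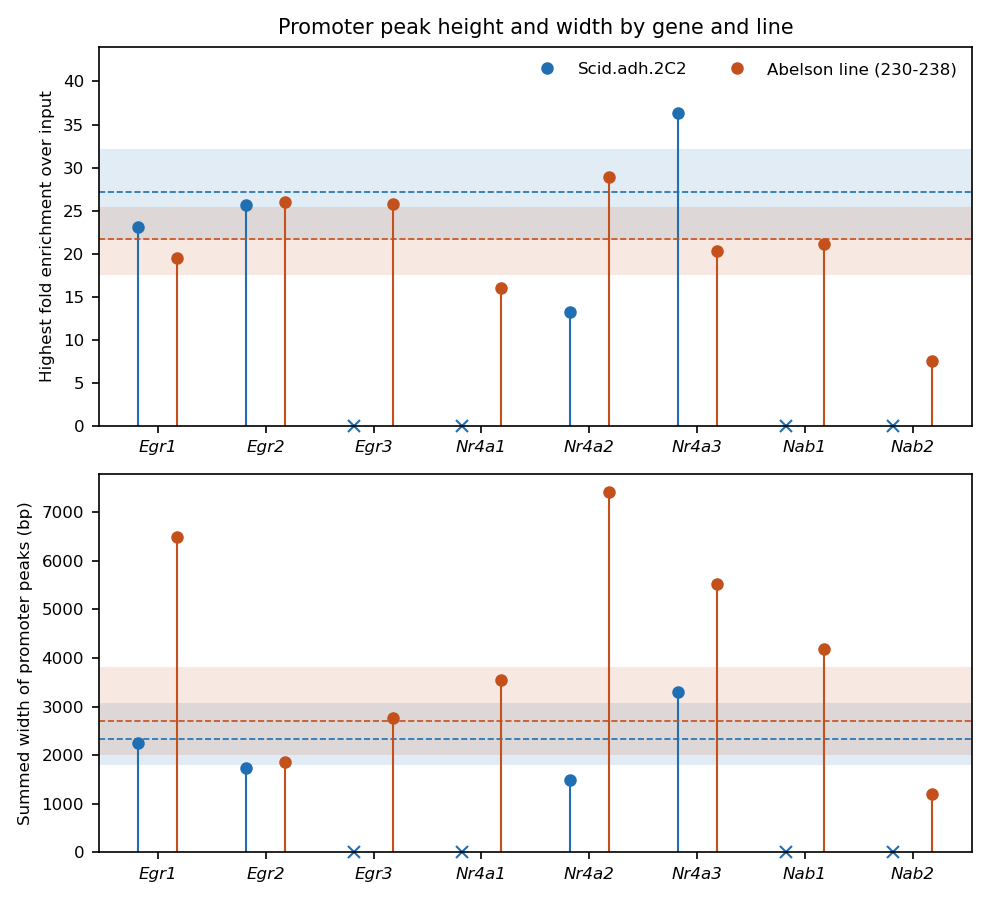
Highest fold enrichment over input (top) and summed width in bp (bottom) of the promoter peaks of each gene in Scid.adh.2C2 (blue) and the Abelson line (orange), with crosses at 0 for genes without a promoter peak. Dashed lines are medians and bands the middle 50% of all marked protein-coding promoters of a line. For the Abelson line the widths of Egr1, Nr4a2, Nr4a3 and Nab1 lie above the band, and in Scid.adh.2C2 only that of Nr4a3 does.

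Height and width were then compared with all marked promoters of the same list, since the lists differ in their overall fold enrichment. A marked promoter of Scid.adh.2C2 had a median highest fold enrichment of 27.1 and a median summed width of 2325 bp, and one of the Abelson line had 21.7 and 2704 bp. Over the 4 genes marked in Scid.adh.2C2 the median height was 24.4-fold and the median summed width 1994 bp. Over the 8 genes marked in the Abelson line they were 20.7-fold and 3864.5 bp. The medians of these genes were thus below those of all marked promoters in height in both lines, and above them in width in the Abelson line only.

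For the summed width, Nr4a2 stood at the 97.4th percentile of marked promoters in the Abelson line and at the 13.6th in Scid.adh.2C2. Egr1 stood at the 95.6th percentile in the Abelson line and at the 46.9th in Scid.adh.2C2. Nr4a3 was in the upper part of both lists, at the 92.2nd percentile in the Abelson line and at the 80.0th in Scid.adh.2C2. Egr2 was narrow in both, at the 20.1st and the 22.3rd. The genes marked in the Abelson line only covered the whole range, from Nab1 at the 80.8th percentile and Nr4a1 at the 70.7th to Egr3 at the 52.5th and Nab2 at the 5.0th. In order of summed width in the Abelson line the genes were Nr4a2 (7426 bp), Egr1 (6489 bp), Nr4a3 (5527 bp), Nab1 (4188 bp), Nr4a1 (3541 bp), Egr3 (2774 bp), Egr2 (1862 bp) and Nab2 (1212 bp). In Scid.adh.2C2 the order was Nr4a3 (3302 bp), Egr1 (2255 bp), Egr2 (1733 bp) and Nr4a2 (1499 bp). Nr4a2 was thus the widest of the marked genes in the Abelson line and the narrowest in Scid.adh.2C2. Without a spread between replicates, it cannot be said which neighbours in these orders differ.

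Of the 4 genes marked in both lines, Nr4a2 and Egr1 were at least 2-fold wider in the Abelson line. Such a difference was found in 7.93% of the 9261 protein-coding genes marked in both lines, and the opposite one in 1.48%. The ratio of summed widths, the Abelson line over Scid.adh.2C2, was 4.95 for Nr4a2, 2.88 for Egr1, 1.67 for Nr4a3 and 1.07 for Egr2, against a median of 1.13 over all shared promoters. Nr4a2 and Egr1 stood at the 99.2nd and the 97.1st percentile of these ratios, and Egr2 at the 40.5th. All 4 were wider in the Abelson line, as were 74.9% of shared promoters. For Egr1 the ratio depended on counting both peaks, and the width of the highest peak alone was smaller in the Abelson line, with a log2 ratio of -0.46. For Nr4a2 the log2 ratio, 2.31 for the summed width, was 0.86 for the highest peak alone, which is under 2-fold, and 3.09 for the covered bases of the promoter window.

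The fold enrichment gave a different picture. On the log2 scale, and less the median of -0.32 over shared promoters, the difference in the highest fold, the Abelson line over Scid.adh.2C2, was 1.44 for Nr4a2, 0.34 for Egr2, 0.07 for Egr1 and -0.52 for Nr4a3. Only Nr4a2 differed by 2-fold or more, at the 99.0th percentile, against 3.30% of shared promoters that were at least 2-fold higher in the Abelson line and 1.98% that were so in Scid.adh.2C2. Nr4a3 stood at the 11.7th percentile. Egr1 was therefore wider in the Abelson line, with a similar relative height of its highest peak. These highest peaks of Egr1 lay at different places, with summits at -611 bp in the Abelson line and 459 bp in Scid.adh.2C2. They overlapped by 286 bp, so the value does not compare the height at the same site. Nr4a3 was lower and wider in the Abelson line by less than 2-fold, so that neither was called a difference. Its log2 width ratio was 0.74 for the summed width and 0.28 for the highest peak alone. The value of Nr4a2 compares peaks at different places in the gene, because its highest peak in the Abelson line was at the upstream TSS, and it was 2.10 when the −log10 q-value was taken as the height.

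**Figure D3:**
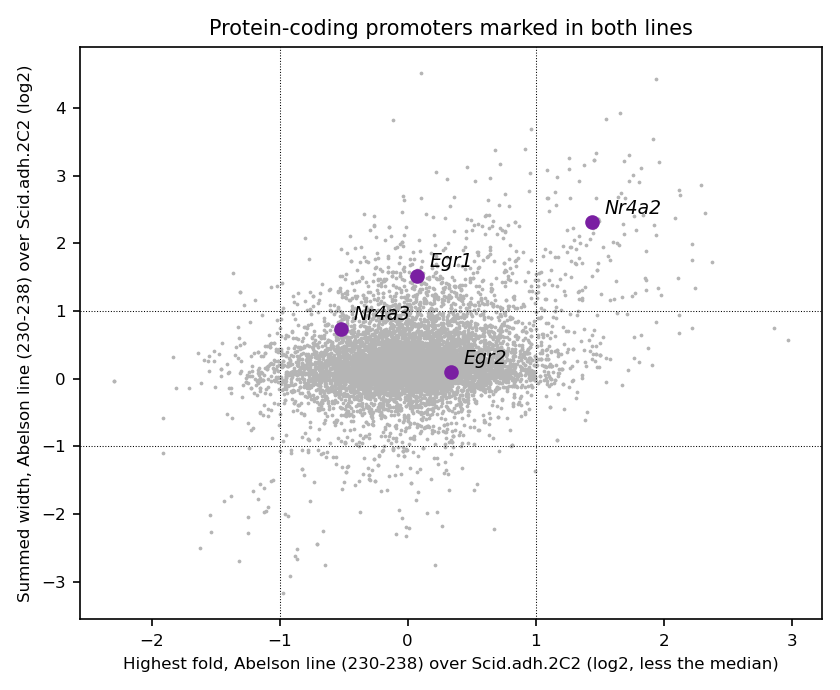
Each grey point is 1 of 9261 protein-coding genes marked in both lines, by the log2 ratio of its highest fold enrichment (the Abelson line over Scid.adh.2C2, less the median; x axis) and of its summed peak width (y axis), with dotted lines at 2-fold. Nr4a2 lies past 2-fold on both axes, Egr1 on the width axis alone, and Egr2 and Nr4a3 on neither.

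The position of the peaks was then compared with the TSSs. Of 32 annotated TSSs of the 8 genes, 16 lay under a peak in the Abelson line and 7 in Scid.adh.2C2. The share over all annotated TSSs was not computed, and 4 of the 8 genes had no promoter peak in Scid.adh.2C2, so these counts are a description only. The genes with at least 1 TSS under a peak were 7 in the Abelson line, all but Egr3, and 3 in Scid.adh.2C2, namely Egr1, Egr2 and Nr4a3. Among all marked genes, 6.69% in the Abelson line and 5.81% in Scid.adh.2C2 had a promoter peak but no TSS under it. The reference TSS was under a peak for 6 of the 8 genes in the Abelson line, with Egr3 and Nab2 as the exceptions, and outside the peaks for 18.7% of all marked genes of that line with such a TSS. The mark was often split, with 2 or more promoter peaks for 6 of 8 genes in the Abelson line and for 1 of 4, Egr2, in Scid.adh.2C2. Among all marked genes the shares were 33.2% and 25.8%. At Egr1, Nr4a3 and Nab1 the gaps between neighbouring peaks were 95 to 164 bp, while at Nr4a1 and Nr4a2 the peaks belonged to separate start regions 11136 bp and 3267 bp apart.

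Peaks outside promoters were counted within 100 kb of each gene, leaving out every peak that overlapped the promoter window of any annotated gene. There were 13 of these distal peaks in the Abelson line and 4 in Scid.adh.2C2. The whole lists held more distal peaks in the Abelson line too, 5815 (29.7% of its list) against 3722 (24.0%) in Scid.adh.2C2. All 4 of Scid.adh.2C2 overlapped a peak of the Abelson line, and 9 of the 13 of the Abelson line overlapped none of Scid.adh.2C2. Over the whole lists, 76.6% of distal peaks of the Abelson line and 62.4% of those of Scid.adh.2C2 had no partner in the other line. Nr4a1 and Egr1 had 5 each in the Abelson line. Those of Nr4a1 had folds from 9.33 to 14.1 and all lay upstream, including 2 neighbouring peaks at -20.1 and -20.7 kb from the reference TSS, and Scid.adh.2C2 had none there.

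At Egr1 a distal peak upstream of the TSS was present in both lines, with summits at -4.01 kb in the Abelson line and -3.89 kb in Scid.adh.2C2. It had 24.4-fold enrichment over 2707 bp in the Abelson line and 8.86-fold over 1031 bp in Scid.adh.2C2. Both lines also had peaks near 28.2 kb after the TSS, with 21.4-fold enrichment in Scid.adh.2C2 and 25.9-fold in the Abelson line. Upstream of Egr3, at -10.6 kb, lay a peak of 2521 bp with 18.4-fold enrichment in the Abelson line, and 2 short peaks of 840 bp and 307 bp with 8.71-fold and 6.46-fold enrichment overlapped it in Scid.adh.2C2. This region upstream of Egr3 was thus marked in both lines, although Egr3 had no promoter peak in Scid.adh.2C2. It was assigned to Egr3 by distance only, and whether it acts on Egr3 was not tested. Nr4a2 and Nab2 had 1 distal peak each, in the Abelson line, and Egr2, Nr4a3 and Nab1 had none in either line.

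The closest protein-coding neighbours show whether the difference at a gene extended beyond it. Of the 16 neighbours, 1 on each side of each gene and not overlapping it, 11 were marked in both lines, 2 in the Abelson line only and 3 in neither. Over all protein-coding genes these shares were 42.2%, 5.96% and 48.6%. The 2 marked in the Abelson line only were Reep2, 12.4 kb upstream of Egr1, with 15.8-fold enrichment, and Grasp, 21.5 kb upstream of Nr4a1, with 25.2-fold. Atg101, 9.48 kb downstream of Nr4a1, was marked in both lines, with 16.9-fold enrichment in Scid.adh.2C2 and 22.9-fold in the Abelson line. Both neighbours of Nab1 and the downstream neighbour of Egr3, Bin3, were marked in both lines too. At Nab2 the upstream neighbour Myo1a was unmarked in both lines. Its downstream neighbour Lrp1 was marked in both, with 7.55-fold enrichment in Scid.adh.2C2 and 26.1-fold in the Abelson line. Each of the 4 genes unmarked in Scid.adh.2C2 thus had a neighbour marked there on at least 1 side, while Grasp near Nr4a1 was unmarked there and Lrp1 near Nab2 was lower there than in the Abelson line.

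Other genes of the pathway were counted in 4 lists. Upstream regulators, the serum response factor, Elk, myocardin-related, CREB, Mef2 and NFAT genes, were marked in both lines for 13 of 15, against 42.2% of all protein-coding genes. The exceptions were Mef2c, marked in the Abelson line only with 14.3-fold enrichment over 15047 bp, and Nfatc2, which had a promoter peak in Scid.adh.2C2 alone, of 3290 bp and 22.1-fold enrichment. Mef2c is a transcription factor with a known role in B cell development, and Nfatc2 encodes a calcium-responsive factor of T cells. Among the 13 genes marked in both, 12 were wider in the Abelson line, 4 of them at least 2-fold, and none was at least 2-fold wider in Scid.adh.2C2. Over all shared promoters the shares were 74.9%, 7.93% and 1.48%.

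Of 22 other immediate-early genes, 18 (81.8%) were marked in the Abelson line and 15 (68.2%) in Scid.adh.2C2, against 48.2% and 45.5% of all protein-coding genes. Jun, Atf3 and Dusp4 were marked in the Abelson line only, a state of 5.96% of all genes, no gene in the other line alone, and Fosl1, Jund, Arc and Ccn1 in neither. Jun, an AP-1 subunit, had 22.1-fold enrichment, Dusp4, a phosphatase that acts on ERK, had 23.9-fold, and the stress-induced factor Atf3 had 8.10-fold. Jund, a broadly expressed AP-1 gene of this list without a listed peak in either line, was picked out for mention after its values were seen. Whether it carried the mark without a listed peak was not analysed. Of the 15 genes marked in both, 13 were wider in the Abelson line, 5 of them at least 2-fold, against the 74.9% and 7.93% of shared promoters given above.

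Of 15 genes reported as targets of Egr or Nr4a factors in lymphocytes, 11 (73.3%) were marked in each line, against 45.5% of all protein-coding genes in Scid.adh.2C2 and 48.2% in the Abelson line. Of the 9 marked in both, 8 were wider in the Abelson line, and 2 were at least 2-fold wider there. These, named after their values were seen, were Irf4, a transcription factor gene of activated lymphocytes, with a width ratio of 11.6, and Id3, which encodes an inhibitor of E proteins, with 3.09. Over all shared promoters 74.9% were wider and 7.93% at least 2-fold wider. Tox, with 31.7-fold enrichment, and Ikzf2, with 28.4-fold, had a promoter peak in Scid.adh.2C2 alone, and both encode transcription factors of T cells. Socs1, an inhibitor of cytokine signaling, with 22.3-fold, and Pdcd1, which encodes the inhibitory receptor PD-1, with 8.75-fold, were marked in the Abelson line only. Among other family members and partners, Egr4 was unmarked in both lines, as were Wt1 and Rxrg. Rxrb, a partner of Nr4a1 and Nr4a2, was marked in both, while Rxra had peaks in Scid.adh.2C2 alone, over 5254 bp in all and with 32.3-fold enrichment.

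**Figure D4:**
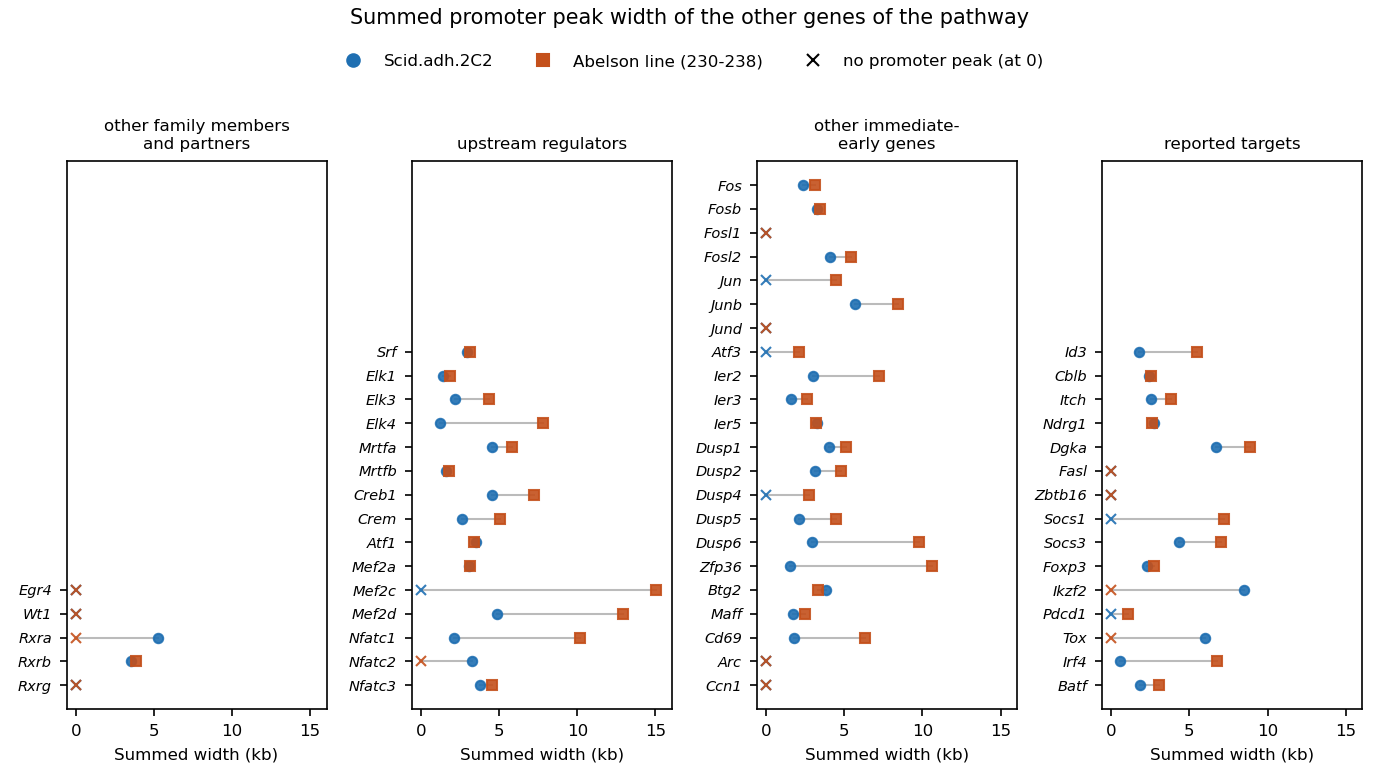
Summed width of promoter peaks (kb) of the genes of the 4 lists in Scid.adh.2C2 (blue circles) and the Abelson line (orange squares), with crosses at 0 where a line has no promoter peak; grey lines join both values of a gene. Most immediate-early genes and upstream regulators have the square to the right of the circle, and Tox, Ikzf2, Rxra and Nfatc2 have a circle only.

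The genes most like the widest member of each line were sought over 4 values, the percentiles of height and of summed width in both lists. For Nr4a3, the widest in Scid.adh.2C2, they were Slc2a3, at a summed distance of 12.2 percentile points, and Lnx2 and Polr1d, both at 13.4. For Nr4a2, the widest in the Abelson line, they were Nfix at 12.6 and Cntnap1 and Plekhh3, both at 12.7. Lnx2 and Polr1d had equal values, as had Cntnap1 and Plekhh3. Nfix, like Nr4a2, was low and narrow in Scid.adh.2C2, at the 6.68th percentile of height and the 20.4th of width, and high and wide in the Abelson line, at the 86.5th and the 98.0th. These likenesses rest on 1 list per line.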

How the data were processed

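H3K4me3 ChIP-seq of Scid.adh.2C2 cells and of the Abelson-transformed B cell progenitor line (the Abelson line) was used, with 2 ChIP libraries and 1 input library per line, grouped by the labels. Reads were trimmed by the authors (Trim Galore 0.6.7), who mapped them to mm10 (GRCm38) with Bowtie2 2.4.4, called peaks with MACS2 2.2.7.1 in narrow mode at a q-value of 0.05 against input, and filtered them for reproducibility (IDR, 0.05). The deposited lists of 15513 (Scid.adh.2C2) and 19604 (the Abelson line) peaks give the authors' IDR score, fold enrichment ratio, and −log10 p-value and q-value, used unchanged, together with start, end and summit positions. Depth per library is not given in these lists, and the number of libraries limits the precision.

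TSSs came from GENCODE vM21, which is on the same build, and the reference TSS is that of the transcript with the lowest number in the gene's transcript names. A promoter peak overlapped the 2500 bp either side of a TSS by at least 1 bp. Symbols not in the annotation were matched through RefSeq synonyms. Height was the highest fold, width the sum over promoter peaks, and a 2-fold difference was called. Because each line has 1 list, no test was run. Genes outside the 8 were named if they were marked in 1 line only within a list, shared a peak with a member, or were among the 3 most like it. The neighbours, marker genes and the genes unmarked in both lines are also named. The members and lists were chosen with earlier results of these data known, and the TGACG core was added after the sequences were seen. The promoter step was tested on simulated peaks. Other windows, thresholds, TSS sets and width measures were tried. Python 3.11.15 and numpy 2.4.6 were used.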

Additional observations from a re-analysis of the deposited data

How the results depend on the processing

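The counts of marked genes moved by at most 1 gene under every alternative for windows, thresholds, list sizes and TSS sets. Nr4a2 was lost in Scid.adh.2C2 with a window of 1000 bp, with the summit required inside the window, with the most upstream TSS only, and with a TSS required inside the peak, which was chosen after seeing the data. In the Abelson line, Nab2 was lost at 10-fold or more and with equal list sizes, and Egr3 with a TSS required inside the peak. The number of genes at least 2-fold different in height, 1, became 0 with a window of 1000 bp and with the most upstream TSS only, since Nr4a2 then had no value. The number at least 2-fold wider in the Abelson line, 2, became 1 with a window of 1000 bp and with the most upstream TSS only, for the same reason, and 0 with the highest peak alone. With that measure the log2 width ratio of Egr1 reversed from 1.52 to -0.46. No other direction reversed. The log2 width ratio of Nr4a2 moved from 2.31 to 3.09 with the covered bases of the window and to 0.86 with the highest peak alone, and its log2 height difference from 1.44 to 2.10 with the −log10 q-value as the height. No paired analysis was possible because each line has 1 combined list without values per replicate, and for the same reason no replicate could be left out.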
